A study of Mus musculus with 4 samples.

Results

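The 41 gene symbols described here belong to homologous recombination, the Fanconi pathway and the ATR checkpoint of mouse cells. They were taken as a fixed list of names, chosen with earlier results of these data known. They matched 42 Ensembl genes among the 14533 genes of the deposited RNA table, because the symbol Rad54b was carried by 2 entries, and all 42 passed the filter on low values that left 13005 genes for testing. The RNA came from mouse embryonic stem cells (ESCs), with 4 libraries, 2 of serum ESCs and 2 of 2i ESCs. Serum ESCs were grown in medium with fetal calf serum and the cytokine LIF. The 2i ESCs were grown in serum-free Ndiff 227 medium with LIF, the GSK3 inhibitor CHIR99021 and the MEK inhibitor PD0325901, and cells of both groups were fully adapted to their medium over more than 20 days. The labels place both groups in late G1-phase, whereas the series description names early G1-phase, and the labels give neither a cell line nor a genotype. In the study, cells were sorted by FUCCI reporters, fluorescent proteins whose level follows the cell cycle, but the labels do not name the sort of these 4 libraries. The description calls the libraries biological replicates without naming separate cultures, so p-values measure the spread between these libraries only.

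Homologous recombination repairs a broken chromosome by copying an intact sister or homologous sequence. Nucleases first resect the broken end, RPA covers the exposed single strand, and BRCA2 with its partners then prepares that strand for pairing with the intact copy. The Fanconi proteins act on crosslinks between the strands and on stalled replication forks, and the kinases ATR and ATM with their effectors CHEK1 and CHEK2 hold the cell cycle while damage remains. Recombination is used mainly in S- and G2-phase, when a sister copy exists, whereas end joining is the usual route in G1-phase, and ESCs are known for high expression of recombination genes in comparison with differentiated cells.

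Values are normalized counts, that is, gene counts divided by a size factor of each library, and fold changes are serum over 2i on the scale log2(normalized count + 1). Whole reads assigned to the 14533 genes came to between 18939401 and 26570098 per library. The members had between 550 and 22274 reads over the 4 libraries. Of the variance between libraries, 54.0% lay on a first principal component that separated the replicate numbers, and 30.4% on a second that separated serum from 2i. Pluripotency markers were high in both groups, with summed normalized counts of 42511 and 51913 in serum ESCs and 40901 and 53701 in 2i ESCs over 6 genes including Pou5f1, Sox2 and Nanog, and none of them was at 0. Of 7 primitive endoderm markers, 4 were analysed, with sums of 72.0 and 109 in serum ESCs and 332 and 256 in 2i ESCs. Of 7 fibroblast markers, 3 were analysed, with sums of 2834 and 1472 in serum ESCs and 1213 and 399.6 in 2i ESCs, most of it Vim, which ESCs may also express.

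Of the 42 member genes, 36 were higher and 6 lower in serum ESCs by the sign of the log2 fold change, beside 50.3% of all genes tested that were higher. Their median log2 fold change was 0.52, a fold change of 1.44, while the median over all genes tested was 0.0047. No member passed the test (limma, adjusted p under 0.05 and at least a 2-fold change, 0 of 42), a call that 0.0154% of all genes tested received. The lowest adjusted p among the members was 0.753 with limma, 0.148 with DESeq2 and 0.692 with edgeR. With DESeq2, 0 members were called as well, beside 1.93% of all genes tested. An unadjusted limma p under 0.05 was found for 3 members, beside 5.97% of all genes tested, and all 3 (Exo1, Brca2 and Rad54l) were higher in serum ESCs, as were 2.97% of all genes tested at that p. Under the same unadjusted threshold were 9 members in DESeq2, beside 13.2% of all genes tested, and 2 members in edgeR, beside 6.05%. Among those in DESeq2 was Brip1, which was lower in serum ESCs (DESeq2 log2 fold change -2.14), while the others were higher. In bulk RNA, a larger share of cells that express a gene and more RNA of that gene per cell cannot be told apart.

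In 23 members, both serum values lay above both 2i values, 54.8% of the members beside 20.5% of all genes tested. The reverse order was found in 2 members, Atrip and Rad1, beside 19.4% of all genes tested. In the other 17 members the groups overlapped. A log2 fold change above 1 was measured in 10 members (Fancc, Exo1, Brca2, Atm, Brca1, Chek1, Clspn, Rad17, Rad54l and Bard1), beside 9.89% of all genes tested, and 1 member, Brip1, lay below -1, beside 15.9% of all genes tested. When GC content and transcript length were corrected for, Fancc alone of the 10 stayed above 1, and the other 9 lay between 0.58 (Chek1) and 0.996 (Rad54l). Under that correction the members' median was 0.37 and 32 members were higher in serum ESCs. The direction of the median did not depend on which libraries were paired. Serum replicate 1 over 2i replicate 1 gave a median of 0.62, over 2i replicate 2 it gave 0.24, and serum replicate 2 gave 0.91 and 0.46 over the same libraries. For comparison within a group, the median difference of serum replicate 1 minus replicate 2 was -0.24 and that of 2i replicate 1 minus replicate 2 was -0.35. When 1 library was left out at a time, the median lay between 0.38 and 0.74 and the number of members higher in serum ESCs between 30 and 36, the lowest count without 2i replicate 1.

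**Figure D1:**
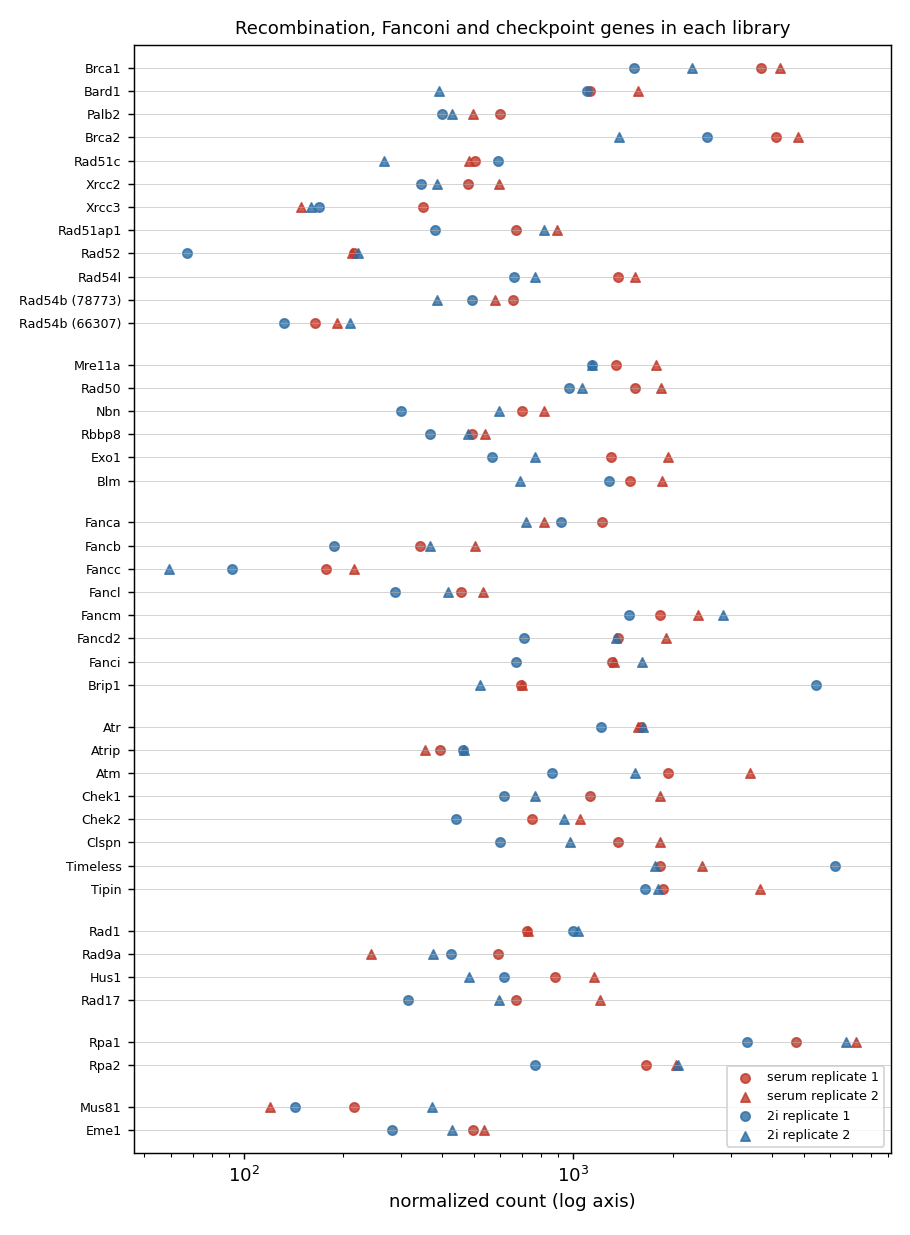
Normalized count of each of the 42 member genes in each library on a log axis, ordered by role, with red for serum ESCs, blue for 2i ESCs, circles for replicate 1 and triangles for replicate 2. In 23 genes both red points lie to the right of both blue points, and Brip1 and Timeless show a single 2i point, replicate 1, far to the right.

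Genes that mark S-, G2- and M-phase differed between the groups in the same direction. Of 14 such markers, 13 were higher in serum ESCs, 11 had both serum values above both 2i values, beside 20.5% of all genes tested, and their median log2 fold change was 1.15. By limma 0 of the 14 were called, beside 0.0154% of all genes tested, and 8 lay under an unadjusted p of 0.05, beside 5.97%. With DESeq2 2 of the 14 were called, beside 1.93% of all genes tested. Their summed normalized counts were 28852 and 41908 in serum ESCs and 18220 and 15816 in 2i ESCs, so the groups did not overlap, and no marker was at 0 in any library. Among them Tpx2, a spindle assembly factor, had 2607 and 3557 normalized counts in serum ESCs and 813 and 543 in 2i ESCs, the largest log2 fold change of the list at 2.19. At the other end were Cdk1, the mitotic kinase, with 1173 and 1464 in serum ESCs and 869 and 2004 in 2i ESCs (-0.010), and Aurkb, a kinase of chromosome segregation (0.15). The part of these markers in the difference of the recombination and checkpoint genes was not tested.

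**Figure D2:**
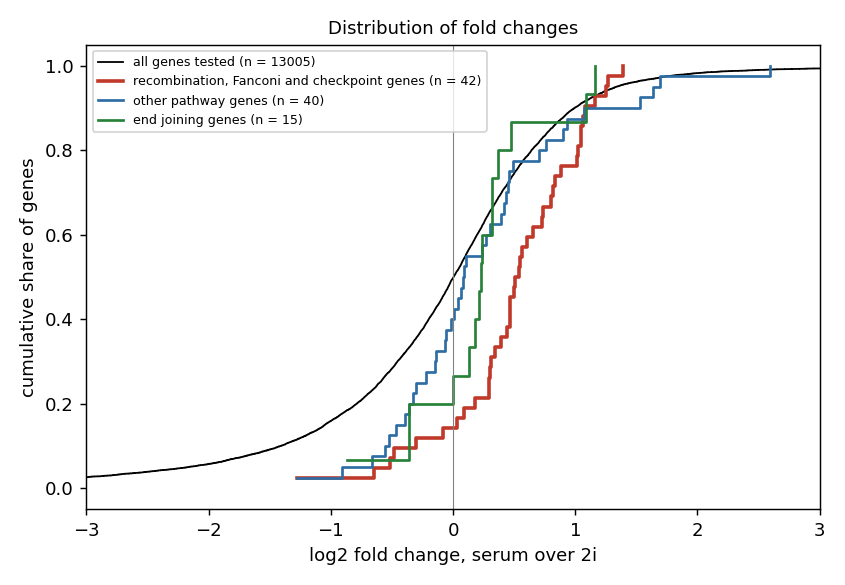
Cumulative share of genes against the log2 fold change, serum over 2i, for all 13005 genes tested, the 42 recombination, Fanconi and checkpoint genes, 40 other genes of these pathways and 15 end joining genes; the axis is drawn from -3 to 3. The curve of the 42 genes runs to the right of the curve of all genes around its median of 0.52.

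Promoter sequences were looked at because most members differed in 1 direction. RefSeq promoters (build GRCm38.p6, 250 bases before to 50 after each start) were found for 32 of the 41 symbols, 35 promoters in all. The words TTTCGCGC, TTTGGCGC, TTTCCCGC and TTTGCCGC, which are of the type that E2F factors bind, were searched on both strands, and a gene was counted once however many of them it held. At least 1 of them was present in the promoters of 5 of 32 member genes (15.6%), of 2.60% of 27025 genes in the promoter table, and of 4.96% of 8512 genes tested here. Of 29 other genes of the same pathways with a promoter in the table, 5 (17.2%) held such a word. The median log2 fold change of the whole list of 40 genes, also those without a promoter or a match, was 0.08. The fold changes of the 5 matched genes were not set apart. The word TTTGAA, the cell cycle homology element of genes used in G2-phase, was present in 3 of 32 member genes (9.38%), in 20.2% of all genes and in 14.0% of genes tested here. A match is a description of the letters and not of binding. The promoters of the 3 members with a log2 fold change above 1 and a match are printed whole, 5′ to 3′ on the gene's strand, with the matched word, or its reverse complement, in capitals.
Brca2 (chr5:150522371-150522670, plus strand): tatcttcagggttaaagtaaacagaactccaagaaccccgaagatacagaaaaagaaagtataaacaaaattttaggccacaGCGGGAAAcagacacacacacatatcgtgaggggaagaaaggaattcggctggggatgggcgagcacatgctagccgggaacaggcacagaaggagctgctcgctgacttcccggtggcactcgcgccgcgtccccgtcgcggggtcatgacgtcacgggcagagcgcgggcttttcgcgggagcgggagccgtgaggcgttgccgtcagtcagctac
Clspn (chr4:126556730-126557029, plus strand): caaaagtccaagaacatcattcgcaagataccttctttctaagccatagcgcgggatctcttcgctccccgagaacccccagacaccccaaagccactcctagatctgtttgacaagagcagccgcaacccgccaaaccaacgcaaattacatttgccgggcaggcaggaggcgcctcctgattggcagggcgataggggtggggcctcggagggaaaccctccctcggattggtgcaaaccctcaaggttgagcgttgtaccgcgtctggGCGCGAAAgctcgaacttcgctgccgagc
Bard1 (chr1:71102923-71103222, minus strand): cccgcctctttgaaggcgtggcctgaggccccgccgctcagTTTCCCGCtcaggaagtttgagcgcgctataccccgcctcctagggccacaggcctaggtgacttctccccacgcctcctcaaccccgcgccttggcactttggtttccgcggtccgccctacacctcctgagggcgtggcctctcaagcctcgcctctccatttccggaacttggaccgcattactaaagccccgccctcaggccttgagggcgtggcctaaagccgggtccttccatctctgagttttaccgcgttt

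Chek2 and Rad51c also carried such a word, and 30 bases around each match are printed in the same way. Rad51c had 2 promoters with a match each.
Chek2 (chr5:110839820-110839849, plus strand): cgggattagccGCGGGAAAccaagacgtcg
Rad51c, promoter A (chr11:87404477-87404506, minus strand): gtttccagcgcTTTCGCGCctcttgctcta
Rad51c, promoter B (chr11:87404941-87404970, minus strand): cccccgcgaggGCGGGAAAagcaaggggtc
Chek2 and Rad51c had log2 fold changes of 0.46 and 0.31. Whether a match goes with the size of the fold change was not tested. Brca1, Rad54l, Chek1, Atm, Fancc and Rad17 held none of these words in the window. The window of Chek1 ended inside a partial match, so a word that crosses its end could not be seen. For Exo1 no promoter was found.

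The 12 genes of the BRCA and strand exchange group were all above 0 in log2 fold change, with a median of 0.52. In the 4 pairings of single libraries the median of the group lay higher, between 0.60 and 0.73. Both serum values lay above both 2i values in 7 of the 12, beside 20.5% of all genes tested. Brca2, a mediator of strand exchange that is mutated in familial breast cancer, had 4123 and 4803 normalized counts in serum ESCs and 2548 and 1374 in 2i ESCs. The serum libraries were both above the 2i libraries, and the 2i libraries differed from each other more than the serum libraries did. The log2 fold change was 1.25 ± 0.50 (SE, n = 2 per group), with a 95% interval of 0.048 to 2.45, an unadjusted p of 0.0437 and an adjusted p of 0.753 in limma. Brca2 lies at chr5:151325205-151372321 on the plus strand in build mm9 (ENSMUSG00000041147). Rad54l, a motor protein that drives strand exchange, had 1362 and 1539 normalized counts in serum ESCs and 662 and 765 in 2i ESCs. Here the replicates of a group lay close together and the groups did not overlap, with a log2 fold change of 1.02 ± 0.42, a limma unadjusted p of 0.0481 and an adjusted p of 0.753. The 3′ part of Rad54l, at chr4:115766869-115796295 on the minus strand, overlaps exons of Lrrc41 on the opposite strand, and 87.2% of its 43-base words occurred in no other gene. Lrrc41 went the other way, with 584 and 559 normalized counts in serum ESCs and 704 and 1317 in 2i ESCs.

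Brca1, a ubiquitin ligase subunit that promotes resection and recombination, had 3700 and 4245 normalized counts in serum ESCs against 1527 and 2295 in 2i ESCs, a log2 fold change of 1.08 ± 0.46. Its partner Bard1 had 1121 and 1569 in serum ESCs and 1102 and 390.0 in 2i ESCs. Serum replicate 1 and 2i replicate 1 of Bard1 were almost equal, so that its log2 fold change of 1.01 ± 0.60 rested on the low value in 2i replicate 2. Palb2, which bridges BRCA1 and BRCA2, had 599 and 496 normalized counts in serum ESCs 399.7 and 429 in 2i ESCs. The groups did not overlap, but the log2 fold change was small at 0.40 ± 0.43. Xrcc2, a subunit of a complex that assists strand exchange, had 477 and 594 in serum ESCs and 345 and 386 in 2i ESCs, with a log2 fold change of 0.54. Rad54b, a relative of Rad54l, had 655 and 577 in serum ESCs and 491 and 386 in 2i ESCs for its main entry (ENSMUSG00000078773). A second entry of that symbol (ENSMUSG00000066307), which lies within the first without shared exons, had 164 and 192 in serum ESCs and 133 and 209.5 in 2i ESCs, the smallest difference of the group at 0.09, and its sign turned under upper quartile scaling (-0.055).

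In the remaining mediators the groups overlapped. Rad51c, which works in repair complexes with Xrcc3, had 504 and 481 normalized counts in serum ESCs and 589 and 267 in 2i ESCs, and its log2 fold change of 0.31 became -0.26 without 2i replicate 2. Its partner Xrcc3 had 350.2 and 149 in serum ESCs and 169 and 160.1 in 2i ESCs, and its 0.47 became -0.15 without serum replicate 1, the high library. Single libraries thus set the sign in both genes. Rad51ap1, a cofactor of strand pairing, had 667 and 891 in serum ESCs and 381 and 815 in 2i ESCs. Rad52, an annealing protein, had 216 and 213 in serum ESCs and 67.5 and 222 in 2i ESCs. For both genes the low library was 2i replicate 1, without which their log2 fold changes of 0.47 and 0.80 became -0.079 and -0.050.

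**Figure D3:**
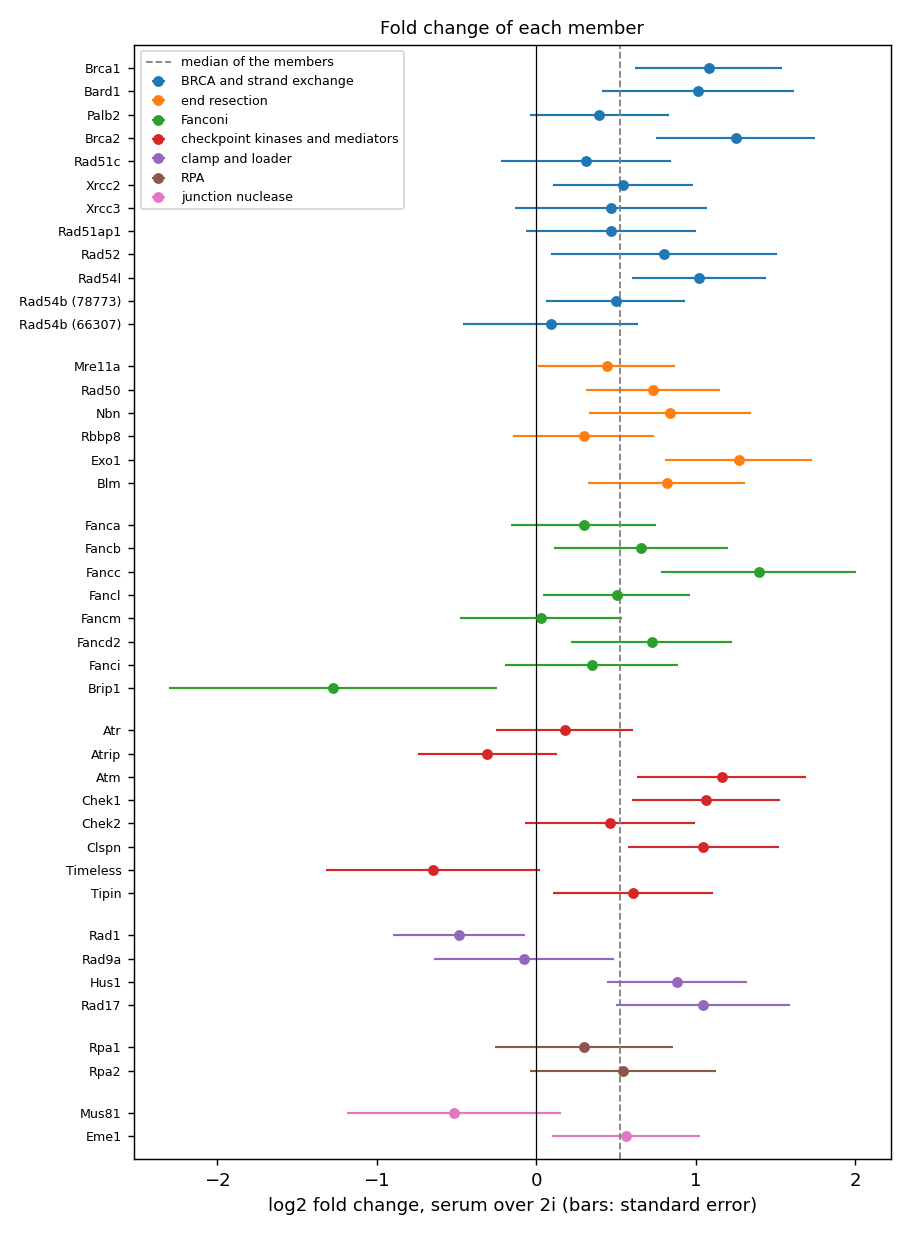
Log2 fold change, serum over 2i, of each of the 42 member genes with its standard error (bars; n = 2 libraries per group, limma), coloured by role. The dashed line is the median of the members at 0.52, the 6 end resection genes all lie to the right of 0, and Brip1 has the lowest value at -1.28 and the widest bar.

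All 6 genes of end resection had both serum values above both 2i values, an order found in 20.5% of all genes tested, with a median log2 fold change of 0.77 and pairing medians between 0.39 and 0.79. Exo1, the 5′ to 3′ exonuclease of long-range resection, had 1299 and 1939 normalized counts in serum ESCs and 567 and 763 in 2i ESCs. Its log2 fold change of 1.27 ± 0.46 (95% interval 0.16 to 2.38) had the lowest unadjusted limma p of all members, 0.0305, and an adjusted p of 0.753. Exo1 lies at chr1:177810909-177841527 on the plus strand in mm9 (ENSMUSG00000039748), with all its 43-base words its own. Blm, a helicase that works with EXO1 or DNA2 in resection and also dissolves joint molecules, had 1483 and 1857 in serum ESCs and 1283 and 691 in 2i ESCs, a log2 fold change of 0.82 ± 0.49.

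The MRN complex, which senses and first trims a break, has 3 subunits. Nbn, its signalling subunit, had 698 and 815 normalized counts in serum ESCs and 300.0 and 593 in 2i ESCs, with a log2 fold change of 0.84 that became 0.35 without 2i replicate 1. Rad50, the tethering ATPase, had 1541 and 1847 in serum ESCs and 973 and 1059 in 2i ESCs, with a log2 fold change of 0.73. Mre11a, the nuclease, had 1346 and 1779 in serum ESCs and 1136 and 1142 in 2i ESCs, with a log2 fold change of 0.44. The log2 fold changes of the subunits had standard errors of 0.51, 0.42 and 0.43, and their order was not tested. The 2i values of Mre11a were nearly equal, and the difference lay mostly in serum replicate 2. Rbbp8, which encodes CtIP and activates MRN, had 492 and 538 in serum ESCs and 366 and 477 in 2i ESCs, the smallest difference of the role at 0.30, which turned to -0.12 when GC content and transcript length were corrected for.

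Of the 8 Fanconi genes, 7 were above 0 in log2 fold change and 3 had both serum values above both 2i values (20.5% of all genes tested), with a median of 0.43 and pairing medians from 0.07 to 0.93. Fancc, a subunit of the core complex, had 178 and 216 normalized counts in serum ESCs and 92.4 and 59.2 in 2i ESCs. It had the largest log2 fold change of all members, 1.39 ± 0.61 with a 95% interval of -0.08 to 2.87. Per kilobase of transcript it had the lowest level of the members in both groups. The limma unadjusted p was 0.0600 and the adjusted p 0.753. Fancl, the ubiquitin ligase of the core complex, had 456 and 532 in serum ESCs and 289 and 416 in 2i ESCs, a log2 fold change of 0.51, and 88.3% of its 43-base words were its own because its exons overlap Vrk2 on the opposite strand. Fancd2, a subunit of the clamp that the core complex marks with ubiquitin, had 1362 and 1906 in serum ESCs and 706 and 1346 in 2i ESCs. Serum replicate 1 lay only just above 2i replicate 2 here, and the log2 fold change was 0.72 ± 0.51.

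Fanci, the partner of Fancd2 in the clamp, had 1314 and 1327 normalized counts in serum ESCs and 668 and 1613 in 2i ESCs, with 2i replicate 2 above both serum libraries. Its log2 fold change of 0.35 became -0.29 without 2i replicate 1, and 87.3% of its 43-base words were its own owing to overlap with Polg. The core complex genes Fanca and Fancb had log2 fold changes of 0.30 and 0.66, with 1219 and 815 in serum ESCs and 918 and 716 in 2i ESCs for Fanca. Fancb, on chromosome X, had 342 and 503 in serum ESCs and 188 and 368 in 2i ESCs. Both therefore had 1 serum library inside the range of the 2i libraries. Fancm, the translocase that anchors the core complex to DNA, had 1835 and 2389 in serum ESCs and 1476 and 2843 in 2i ESCs, so that the 2i libraries enclosed the serum libraries. The log2 fold change of Fancm was 0.03 ± 0.51, and its sign turned under several other settings, among them TMM scaling (-0.0045) and upper quartile scaling (-0.11).

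Brip1, a helicase that binds BRCA1, was the member with the lowest log2 fold change, -1.28 ± 1.03. It had 692 and 697 normalized counts in serum ESCs and 5426 and 522 in 2i ESCs. A single library, 2i replicate 1, was thus 7.79 times above the next highest, while the other 2i library lay below both serum libraries. Leaving out 2i replicate 1 gave Brip1 a log2 fold change of 0.41, and leaving out the other 2i library gave -2.96. The same library stood above each of the others by at least 2-fold in 989 of 13005 genes tested (7.60%), against 176, 443 and 815 genes for serum replicate 1, serum replicate 2 and 2i replicate 2. By at least 5-fold it did so in 440 genes (3.38%). Brip1 lies at chr11:85871638-86014695 on the minus strand in mm9 (ENSMUSG00000034329). The cause of the high value was not tested.

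The 8 checkpoint kinases and mediators had a median log2 fold change of 0.53, with pairing medians from 0.05 to 1.21, and 6 of the 8 were above 0. Atm, the kinase that answers double-strand breaks, had 1930.0 and 3438 normalized counts in serum ESCs and 861 and 1537 in 2i ESCs, a log2 fold change of 1.16 ± 0.53. Atr, the kinase that answers single-stranded DNA at stalled forks, had 1604 and 1575 in serum ESCs and 1214 and 1624 in 2i ESCs. The groups overlapped for Atr, its log2 fold change was 0.18 ± 0.43, and it became -0.031 without 2i replicate 1 and -0.39 when GC content and length were corrected for. Atrip, which carries ATR to RPA, was 1 of the 2 members with both serum values below both 2i values, at 394 and 356 against 461 and 466. Its log2 fold change was -0.31 ± 0.43 with an adjusted limma p of 0.877, and only 77.2% of its 43-base words were its own, since Trex1 shares its exons on the same strand. Whether the reads of Atrip and Trex1 were divided correctly was not tested.

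Chek1, the effector kinase of ATR, had 1126 and 1831 normalized counts in serum ESCs and 616 and 765 in 2i ESCs, a log2 fold change of 1.06 ± 0.47 with a limma unadjusted p of 0.0595. Clspn, the adaptor through which ATR activates CHEK1, had 1367 and 1826 in serum ESCs and 598 and 975 in 2i ESCs, a log2 fold change of 1.05 ± 0.47. With GC content and length corrected for, the log2 fold changes were 0.58 for Chek1 and 0.89 for Clspn. Chek2, the effector of ATM, had 750.4 and 1048 in serum ESCs and 441 and 937 in 2i ESCs, and its 0.46 became -0.080 without 2i replicate 1. Tipin and Timeless form a complex that protects the replication fork, and they did not follow each other. Tipin had 1864 and 3688 in serum ESCs and 1644 and 1805 in 2i ESCs, a log2 fold change of 0.61 that came mainly from serum replicate 2. Timeless had 1828 and 2452 in serum ESCs and 6215 and 1771 in 2i ESCs. As for Brip1, the high value of Timeless was in 2i replicate 1, 2.53 times above the next highest library, and the log2 fold change of -0.65 ± 0.67 became 0.26 without that library.

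The checkpoint clamp is a ring of RAD9A, HUS1 and RAD1 that RAD17 places at damaged DNA. Its genes went in different directions. Rad17 had 667 and 1202 normalized counts in serum ESCs and 316 and 595 in 2i ESCs, a log2 fold change of 1.05 ± 0.54. Hus1 had 876 and 1151 in serum ESCs and 615 and 482 in 2i ESCs, a log2 fold change of 0.88 ± 0.44 with a limma unadjusted p of 0.0891 and an adjusted p of 0.753. Both genes had serum values above the 2i values. Rad1 had 722 and 726 in serum ESCs and 1000 and 1030 in 2i ESCs, the opposite order with close replicates. For Rad1 the log2 fold change was -0.49 ± 0.41 and the adjusted p 0.781 in limma. Rad9a had 590 and 243 in serum ESCs and 426 and 376 in 2i ESCs, with the serum libraries enclosing the 2i libraries. Its log2 fold change of -0.08 changed sign in edgeR (0.028) and DESeq2 (0.037), and ran to 0.56 without serum replicate 2. Exons of Rad9a overlap Ppp1ca on the opposite strand, which had between 4149 and 8180 normalized counts, and the strand of counting was not stated.

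Rpa1 and Rpa2, the large and middle subunits of the single-strand binding protein RPA, were among the members with the highest levels. Rpa1 had 4738 and 7201 normalized counts in serum ESCs and 3358 and 6688 in 2i ESCs. Rpa2 had 1661 and 2044 in serum ESCs and 767 and 2083 in 2i ESCs. In both genes 2i replicate 1 was the lowest library and the groups overlapped. Their log2 fold changes of 0.30 and 0.54 became -0.20 and -0.18 without 2i replicate 1, so the direction rested on that library. Mus81 and Eme1 encode the subunits of a nuclease that cuts joint molecules. Mus81 had 216 and 121 in serum ESCs and 143 and 373 in 2i ESCs, and its log2 fold change of -0.52 became 0.17 without 2i replicate 2. Eme1 had 494 and 536 in serum ESCs and 282 and 428 in 2i ESCs, a log2 fold change of 0.56 ± 0.46 without overlap between the groups. Exons of Eme1 overlap Lrrc59 and Mrpl27 on the opposite strand.

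Per kilobase of the longest coding transcript, the levels of the members spanned a wide range. Tipin had the highest level in both groups, with a mean of 2292 normalized counts per kilobase in serum ESCs and 1424 in 2i ESCs, followed in serum ESCs by Rpa1 at 1176 and Rpa2 at 1022. Next in serum ESCs were Brca1 at 604, Timeless at 480 and Rad54l at 479, of which the last 2 could not be ordered given their replicates. Fancc had the lowest level in both groups, at 60.3 in serum ESCs and 23.2 in 2i ESCs, preceded in serum ESCs by Mus81 at 81.3 and Atrip at 88.3. In 2i ESCs Timeless took place 3 at 896 and Brip1 place 5 at 429, where Brip1 had place 39 in serum ESCs, both through 2i replicate 1. The low end of the order also differed, with Rad52 at 85.4 and Xrcc3 at 68.0 next above Fancc in 2i ESCs.

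**Figure D4:**
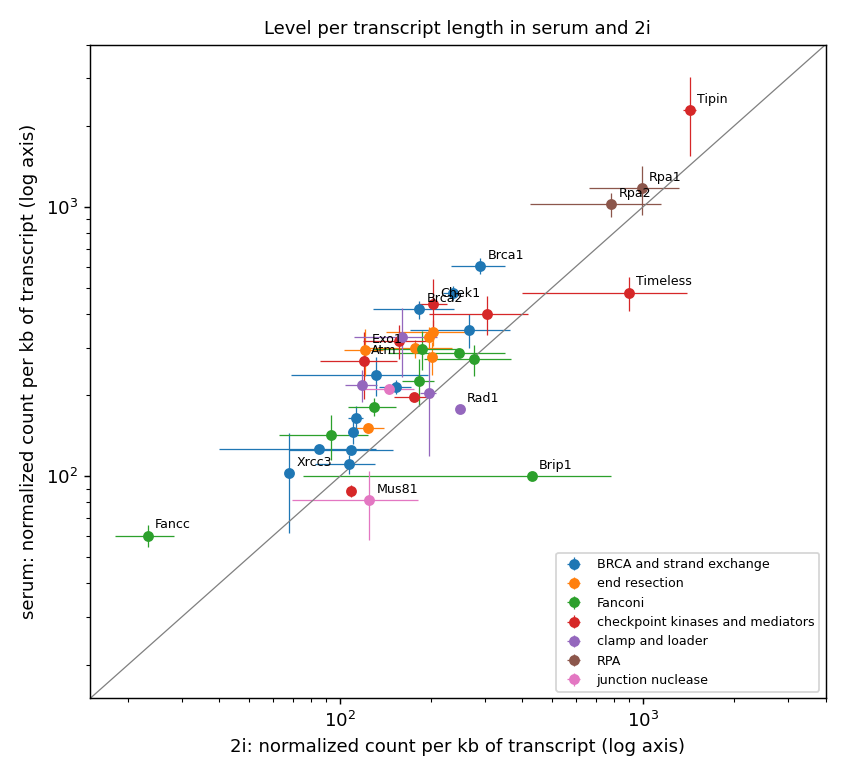
Mean normalized count per kilobase of transcript in serum ESCs against 2i ESCs for the 42 member genes, on log axes, coloured by role; bars run from the lower to the higher of the 2 libraries and the diagonal marks equal levels. Tipin, Rpa1 and Rpa2 lie highest, Fancc lowest, and Brip1 and Timeless lie below the diagonal with bars that reach back to it.

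Another 40 genes of the same pathways were read from the same fit. Their median log2 fold change was 0.08, with 24 above 0 and 16 below, and it became -0.062 under upper quartile scaling. In 13 of them both serum values lay above both 2i values, beside 20.5% of all genes tested, and in 5 both lay below, beside 19.4%. Leaving out 1 library at a time moved the median between 0.089 and 0.23, the highest without 2i replicate 2. By limma 0 of the 40 passed the test, beside 0.0154% of all genes tested. Under an unadjusted limma p of 0.05 lay 5, beside 5.97% of all genes tested, and all 5 were higher in serum ESCs. Gen1, a nuclease that cuts Holliday junctions, had 432 and 669.7 normalized counts in serum ESCs and 95.5 and 81.5 in 2i ESCs, a log2 fold change of 2.59 ± 0.52. Its limma unadjusted p was 0.0020 and its adjusted p 0.753, whereas DESeq2 on whole reads gave an adjusted p of 4.34e-04. Rmi1, a subunit of the complex with BLM that dissolves joint molecules, had 422 and 943 in serum ESCs and 190.0 and 199.8 in 2i ESCs. Usp1, which removes ubiquitin from the Fancd2 clamp, had 2919.5 and 5724 in serum ESCs and 1126 and 1774 in 2i ESCs. In Gen1, Rmi1 and Usp1 the groups did not overlap, and these genes were named for their low unadjusted p. At the other end Hus1b, a relative of Hus1, had 19.0 and 31.1 in serum ESCs and 50.9 and 71.8 in 2i ESCs, a log2 fold change of -1.28.

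The 15 genes of end joining and single-strand break repair had a median log2 fold change of 0.23, with 11 above 0 and 4 below, and it was -0.030 without 2i replicate 1. By limma 0 of the 15 passed the test, beside 0.0154% of all genes tested, and 0 lay under an unadjusted p of 0.05, beside 5.97%. At that unadjusted threshold DESeq2 and edgeR also gave 0, beside 13.2% and 6.05% of all genes tested. In 5 genes both serum values lay above both 2i values, beside 20.5% of all genes tested, and in 1 both lay below, beside 19.4%. Lig4, the ligase of classical end joining, had 249 and 413 normalized counts in serum ESCs and 181 and 113 in 2i ESCs, the largest log2 fold change at 1.16 ± 0.56. Polq, the polymerase of end joining at short homologies, had 437 and 566 in serum ESCs and 291 and 187 in 2i ESCs, a log2 fold change of 1.09 ± 0.49. Parp2, a sensor of strand breaks, had 940.5 and 1105 in serum ESCs and 680.0 and 791 in 2i ESCs. Poll, a polymerase that fills gaps in end joining, had the opposite order, with 267 and 172 in serum ESCs and 328 and 470.5 in 2i ESCs and a log2 fold change of -0.87 ± 0.51. Whether the 3 lists differ from each other was not tested.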

How the data were processed

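RNA was measured in 4 libraries, 2 of serum ESCs and 2 of 2i ESCs. The study removed ribosomal RNA, primed the fragments at random, aligned reads with Bowtie to mm9 and estimated expression with MMSeq, which divides reads that match several transcripts. The values deposited by the authors are a signal, namely counts per gene scaled by the DESeq2 size factor of the library. Dividing by the size of 1 read gave whole reads for 100% of values within 0.02. Names, positions and transcripts came from GENCODE vM1, and 6 symbols were matched through RefSeq synonyms. Genes whose mean reached 50 normalized counts in serum or 2i ESCs were tested with limma 3.58.1 in R 4.3.3 on log2(normalized count + 1), a scale that understates changes of low genes, with a variance trend and Benjamini-Hochberg adjustment over 13005 genes. The limma intervals cover 95%. DESeq2 1.42.0 and edgeR 4.0.16 on whole reads were alternatives. With 2 libraries against 2, only 3 splits exist and the smallest two-sided p of an exact permutation test is 0.333, so none was run. The fit was run on simulated data, where the pass condition used a smaller spread between replicates than these data have. The edgeR common biological coefficient of variation of these data was 0.668. The power to call a 2-fold change at the spread of these data was not tested. The member list and the other lists were chosen with earlier results of these data known. By the rule for named genes, every member may be named. Of the other pathway and end joining genes, the 4 with the lowest unadjusted p and both ends of the log2 fold change were named, and 1 gene that this rule names is not reported here. Promoter sequences came from RefSeq tables of GRCm38.p6, which is not the build of the files, and were matched by symbol only.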

Additional observations from a re-analysis of the deposited data

How the results depend on the processing

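In all settings run, 0 members and 0 end joining genes were called. The number of genes called by limma over the whole table was 2. It was 4 with a filter at a mean of 200 normalized counts over the 4 libraries (which kept 39 members). Adding 5 instead of 1 to the normalized counts gave 3, and leaving out the variance trend gave 1. After the correction for GC content and transcript length, with or without a replicate block, the number was 0. With edgeR 0 genes were called and with DESeq2 251. With the replicate number as a block, 203 of 13005 genes tested were called, among them 1 of the 40 other pathway genes, Gen1. DESeq2, which called 1.93% of all genes tested, also called 1 of the 40, again Gen1. The labels do not say that equal numbers mark a shared culture or day, and with only 2 pairs the correlation of 0.48 between the replicate differences of serum and 2i ESCs across genes does not show pairing. The block moved no other count of calls.

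Leaving out each library in turn moved the members' median log2 fold change between 0.38 and 0.74 and that of the end joining genes between -0.030 and 0.39. The causes of these shifts were not tested beyond the library left out. Upper quartile scaling moved the median of all genes to -0.14, and the members' median under it was 0.38. With the GC content and length correction the members' median was 0.37 and 32 members were higher in serum ESCs. The sign of Fancm turned under TMM scaling (-0.0045), upper quartile scaling (-0.11), the GC content and length correction (-0.38), edgeR (-0.063) and DESeq2 (-0.051). The GC content and length correction, with and without the block, also turned Atr (-0.39), Rad51c (-0.012), Rad54b (ENSMUSG00000066307, -0.23), Rad9a (0.20) and Rbbp8 (-0.12). The second Rad54b entry turned under upper quartile scaling (-0.055), and Rad9a in edgeR (0.028) and DESeq2 (0.037).

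Without 1 library, the log2 fold change ran from -0.031 to 0.39 for Atr, -2.96 to 0.41 for Brip1, -0.080 to 1.01 for Chek2, -0.29 to 0.98 for Fanci and -0.44 to 0.50 for Fancm. The range was -1.20 to 0.17 for Mus81, -0.079 to 1.02 for Rad51ap1, -0.26 to 0.88 for Rad51c and -0.050 to 1.65 for Rad52. For the second Rad54b entry it was -0.24 to 0.42, for Rad9a -0.72 to 0.56, for Rpa1 -0.20 to 0.80, for Rpa2 -0.18 to 1.26, for Timeless -1.55 to 0.26 and for Xrcc3 -0.15 to 1.08. Each member had at least 550 reads in all, and standard errors with 2 libraries a group ran from 0.41 to 1.03 on the log2 scale.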
